A study of Mus musculus with 6 samples.

Results

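The genes described here are the xenobiotic receptors CAR (Nr1i3) and PXR (Nr1i2) and 8 cytochrome P450 genes of the Cyp2a, Cyp2b and Cyp2g subfamilies, Cyp2a4, Cyp2a5, Cyp2a12, Cyp2a22, Cyp2b9, Cyp2b10, Cyp2b13 and Cyp2g1. They were chosen by name, 10 genes in all, and 9 of them have a row among the 25184 genes of the count table. Cyp2b13 had no row, and every row of the count table held at least 1 count over the 6 libraries. Cyp2b9 had 1 count in the 6 libraries together and stayed below the filter on low counts, so 8 of the 10 genes entered the tests. RNA came from primary hepatocytes of chow-fed mice, kept overnight on collagen, and was sequenced as stranded mRNA libraries from 3 Sucnr1 fl/fl and 3 Hep-Sucnr1 KO preparations. Both groups carry floxed alleles of Sucnr1, which encodes the receptor for succinate. Hep-Sucnr1 KO mice (KO below) also carry 1 Alb-Cre allele, from a line with a C57BL6J background, in which the albumin promoter drives the recombinase in hepatocytes, and Sucnr1 fl/fl mice (fl/fl below) lack Cre, so a Cre allele and the loss of Sucnr1 cannot be told apart. RNA was extracted on 2 days, with fl/fl replicate 1 and KO replicate 3 on day 1 and fl/fl replicates 2 and 3 and KO replicates 4 and 5 on day 2. The age and sex of the mice used for these libraries are not given in the labels, and p-values measure the spread between these preparations.

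CAR and PXR are nuclear receptors that pair with the retinoid X receptor RXR and switch on genes of drug and steroid clearance when foreign compounds, bile acids or steroids reach the liver. CAR is known as the main driver of Cyp2b10, and PXR as that of Cyp3a11. Cytochromes P450 are haem enzymes of the endoplasmic reticulum that take electrons from the reductase Por and oxidise lipophilic molecules. Many of them are made most strongly near the central vein of the liver lobule, and several genes of the Cyp2a and Cyp2b subfamilies are known for levels that differ between male and female mouse liver.

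The totals of the 6 libraries lay between 30504248 and 38770694 counts, and values are given as CPM, counts divided by the TMM-scaled library total. Sucnr1 itself was at 6.71, 3.55 and 3.39 CPM in fl/fl replicates 1, 2 and 3 and at 2.66, 0.827 and 0.152 CPM in KO replicates 3, 4 and 5, without overlap (log2 fold change −2.23, SE 0.54, unadjusted p = 0.00444, FDR 0.998 from edgeR's quasi-likelihood test), and KO replicate 3 kept the most of it. Xist, made from the inactive X chromosome, had 0 or 1 count in each library and the Y-linked Ddx3y 1818 to 2509, a pattern of male cells in all 6. All 11 Kupffer cell markers were detected in every library. Their summed level was 56.5 to 179 CPM in fl/fl and 37.3 to 145 CPM in KO libraries. The lowest sum was that of KO replicate 3, the only KO library of day 1, where Cd68 alone gave 29.0 CPM. Every marker except Cd68 was lowest there, with 5 counts of Marco beside 46 to 273 in the other libraries. The median log2 CPM of the markers, minus the mean of the 6 libraries, was −2.45 there and −0.42 to 1.43 elsewhere. For extraction day, 7 of the 11 had an unadjusted p below 0.05 and 0 an FDR below 0.05 (edgeR).

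The P450 genes sit in 1 cluster on chromosome 7 of GRCm38. In the order of the chromosome they are Cyp2b10 (ENSMUSG00000030483, from 25897620 to 25926624), Cyp2b13 (ENSMUSG00000040583, 26061497 to 26096197), Cyp2b9 (ENSMUSG00000040660, 26173411 to 26210661), Cyp2a4 (ENSMUSG00000074254, 26307169 to 26315088), Cyp2g1 (ENSMUSG00000049685, 26808892 to 26821205), Cyp2a5 (ENSMUSG00000005547, 26835305 to 26843548), Cyp2a22 (ENSMUSG00000091867, 26931631 to 26939384) and Cyp2a12 (ENSMUSG00000060407, 27029081 to 27037375). Cyp2a22 lies on the minus strand and the others on the plus strand. Nr1i3 (ENSMUSG00000005677) lies on the plus strand of chromosome 1 from 171213970 to 171220701, and Nr1i2 (ENSMUSG00000022809) on the minus strand of chromosome 16 from 38248323 to 38294824. The pseudogene Cyp2a21-ps spans Cyp2a22 on the opposite strand, and the authors counted with strand.

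The coding sequences of the Cyp2a genes form 2 close pairs. Cyp2a4 and Cyp2a5 differ at 23 of 1482 coding bases (98.4% identity), and Cyp2a12 and Cyp2a22 at 45 of 1476 (97.0%), whereas Cyp2a5 and Cyp2a12 share 76.0% of aligned bases. Among the Cyp2b genes, Cyp2b9 and Cyp2b13 are 92.7% identical, Cyp2b10 and Cyp2b13 87.1%, and Cyp2b9 and Cyp2b10 86.2%. These stretches are shown because reads are assigned to one gene of a pair only by such differences, which stand in capitals within coding bases 550 to 669 of Cyp2a5 and Cyp2a4 and 1302 to 1421 of Cyp2a12 and Cyp2a22, taken from the GENCODE M21 transcripts.
Cyp2a5: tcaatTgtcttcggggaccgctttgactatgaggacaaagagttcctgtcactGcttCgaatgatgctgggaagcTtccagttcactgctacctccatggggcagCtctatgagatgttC
Cyp2a4: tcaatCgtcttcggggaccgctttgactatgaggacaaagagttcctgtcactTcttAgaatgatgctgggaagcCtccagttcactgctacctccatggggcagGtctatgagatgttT
Cyp2a12: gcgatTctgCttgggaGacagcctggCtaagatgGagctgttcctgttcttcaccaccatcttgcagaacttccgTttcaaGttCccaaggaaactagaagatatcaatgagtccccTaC
Cyp2a22: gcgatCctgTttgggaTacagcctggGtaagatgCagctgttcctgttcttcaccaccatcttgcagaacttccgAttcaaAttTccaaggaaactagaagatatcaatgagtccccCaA

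The first stretch holds 6 differences, among them T625C in codon 209, counted from the start codon, with the base of Cyp2a5 first and that of Cyp2a4 last. The second holds 10. Of all windows of 100 bases in the coding transcript, 11.2% of those of Cyp2a4 and 14.4% of those of Cyp2a5 occur without a mismatch in another transcript, against 6.83% for Cyp2a12, 6.36% for Cyp2a22, 1.18% for Cyp2b9, 9.29% for Cyp2b13 and 1.34% for Cyp2g1. For Nr1i3, Nr1i2 and Cyp2b10 the share was 0. The setting for reads with more than 1 match is not given in the sources used here, so the values of the 2 Cyp2a pairs are uncertain where they share sequence.

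Starting with the receptors, CAR and PXR did not pass the test for genotype, and they differed in how far they varied between libraries. Nr1i3 was at 10.3, 15.8 and 11.5 CPM in fl/fl replicates 1, 2 and 3 and at 11.3, 24.0 and 5.58 CPM in KO replicates 3, 4 and 5. The highest and the lowest of the 6 values were thus both KO libraries of day 2, 4.29-fold apart, and the groups overlapped. The means were 12.5 ± 2.86 CPM (SD, n = 3) in fl/fl and 13.6 ± 9.41 CPM (SD, n = 3) in KO cells, and the exact permutation test gave p = 0.9, where 0.1 is the smallest p that 3 against 3 allow. The log2 fold change of KO against fl/fl was 0.12 (SE 0.47, 95% interval −0.99 to 1.23, FDR 0.998). It turned to −0.65 without KO replicate 4 and rose to 0.53 without KO replicate 5, so a single library set its direction.

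Nr1i2 stayed nearly level. It was at 35.2, 35.4 and 29.9 CPM in fl/fl replicates 1, 2 and 3 and at 34.2, 35.0 and 29.4 CPM in KO replicates 3, 4 and 5, a range of 1.20-fold. The lowest and the highest value of each genotype were both day 2 libraries, and the groups overlapped. The log2 fold change was −0.03 (SE 0.12, 95% interval −0.32 to 0.26, FDR 0.998, exact permutation p = 0.5). The SD of its log2 CPM over the 6 libraries stood at percentile 15.3 of the 15105 genes tested, and that of Nr1i3 at percentile 89.8. The ratio of Nr1i3 to Nr1i2 counts therefore ran from 0.190 in KO replicate 5 to 0.686 in KO replicate 4.

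**Figure D1:**
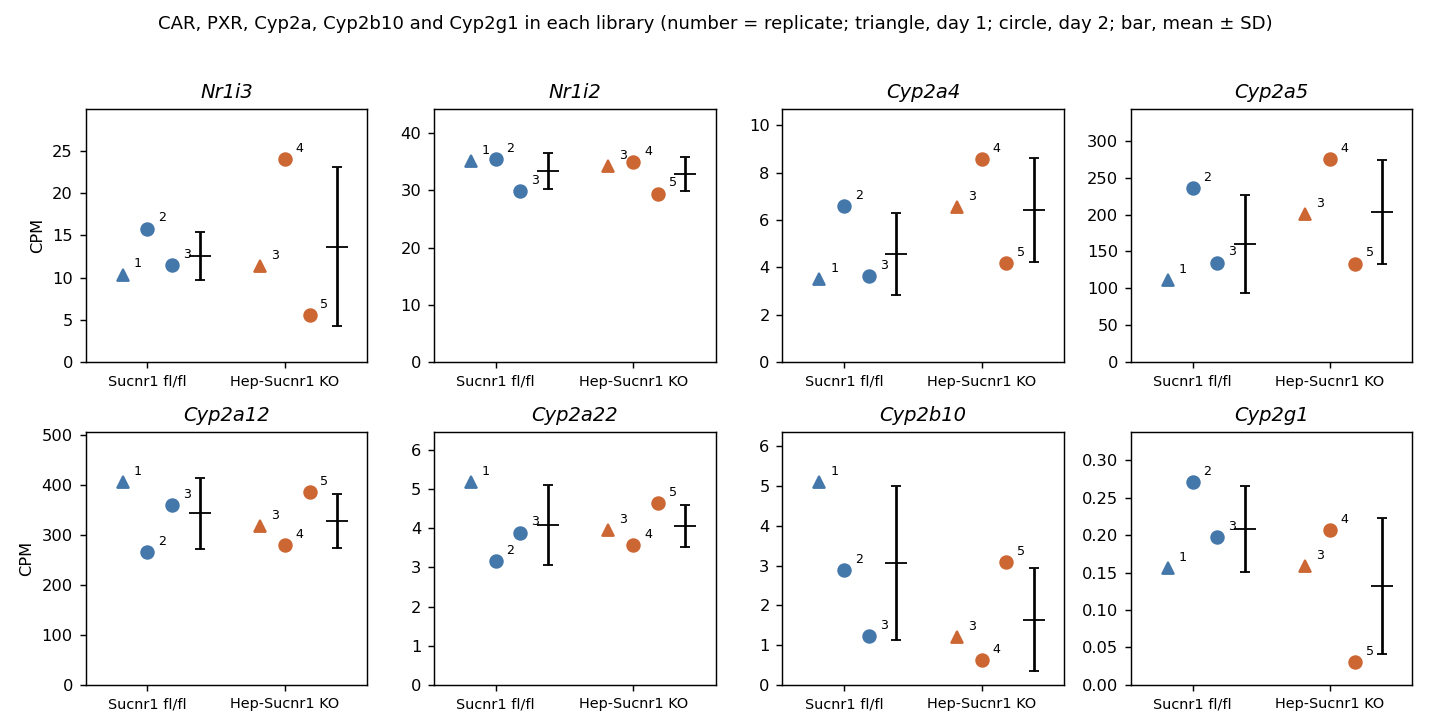
The level in CPM (linear axes from 0) of the 8 tested genes in each library, fl/fl in blue and KO in orange, with triangles for extraction day 1, circles for day 2, replicate numbers beside the points, and bars for the mean ± SD of 3 libraries. The groups overlap in every panel; Nr1i2 lies between 29.4 and 35.4 CPM, while KO replicates 4 and 5 span the whole range of Nr1i3.

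Among the Cyp2a genes, Cyp2a5 and Cyp2a4 had higher means and Cyp2a12 and Cyp2a22 nearly equal means in KO cells, and none passed the test. Cyp2a5, the enzyme that hydroxylates coumarin and oxidises nicotine and bilirubin, was at 111, 236 and 135 CPM in fl/fl replicates 1, 2 and 3 and at 201, 275 and 133 CPM in KO replicates 3, 4 and 5. The highest library of each genotype was fl/fl replicate 2 and KO replicate 4, and the groups overlapped. The means were 161 ± 66.4 CPM and 203 ± 70.7 CPM (SD, n = 3 each), with a log2 fold change of 0.38 (SE 0.34, 95% interval −0.42 to 1.18, FDR 0.998, exact permutation p = 0.6). On day 1 alone, with 1 library of each genotype, the log2 difference of KO from fl/fl was 0.86, and on day 2 alone it was 0.14. With 1 library left out the log2 fold change lay between 0.11 (without KO replicate 4) and 0.71 (without fl/fl replicate 2).

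Cyp2a4, a testosterone hydroxylase known as more abundant in female mouse liver, had the same 3 highest libraries and the same lowest one as Cyp2a5, at a far lower level. It was at 3.51, 6.58 and 3.63 CPM in fl/fl replicates 1, 2 and 3 and at 6.55, 8.56 and 4.19 CPM in KO replicates 3, 4 and 5. The KO value of replicate 5 lay below that of fl/fl replicate 2, so the groups overlapped. The log2 fold change was 0.51 (SE 0.35, 95% interval −0.31 to 1.33, FDR 0.998, exact permutation p = 0.3), 0.24 without KO replicate 4 and 0.85 without fl/fl replicate 2. Counted together, Cyp2a4 and Cyp2a5 reached 165 ± 68.1 CPM in fl/fl and 210 ± 72.9 CPM in KO cells (SD, n = 3 each, two-sided exact permutation p = 0.6). The sum does not depend on how reads counted once are split between them. Reads with more than 1 match could be missing from it or counted at both genes, as their setting is not given.

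Cyp2a12, a steroid and bile acid hydroxylase, had the highest level of the set. It was at 406, 266 and 359 CPM in fl/fl replicates 1, 2 and 3 and at 318, 279 and 386 CPM in KO replicates 3, 4 and 5. Its lowest libraries were fl/fl replicate 2 and KO replicate 4, those in which Cyp2a5 was highest. The log2 fold change was −0.06 (SE 0.20, 95% interval −0.53 to 0.41, FDR 0.998, exact permutation p = 0.8), and its sign turned in 4 of the 6 fits that left out 1 library. Cyp2a22 was at 5.17, 3.16 and 3.89 CPM in fl/fl replicates 1, 2 and 3 and at 3.96, 3.57 and 4.64 CPM in KO replicates 3, 4 and 5. It kept to the order of Cyp2a12 in its highest and lowest libraries, and its log2 fold change was 0.02 (SE 0.22, 95% interval −0.52 to 0.55, FDR 0.998), a direction that turned with DESeq2's size factors (−0.0050) or the library size alone (−0.01) in place of TMM.

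Within each close pair the proportion of the rarer gene hardly moved. Cyp2a4 made up 3.06, 2.71 and 2.62% of the counts of Cyp2a4 plus Cyp2a5 in fl/fl replicates 1, 2 and 3 and 3.15, 3.02 and 3.04% in KO replicates 3, 4 and 5. The exact (Clopper-Pearson) 95% intervals, which cover counting error only, ran from 2.16% at the lowest to 3.61% at the highest bound and overlapped between all 6 libraries, while the CPM of Cyp2a5 spanned 2.47-fold. Cyp2a22 made up 1.26, 1.17 and 1.07% of Cyp2a22 plus Cyp2a12 in fl/fl replicates 1, 2 and 3 and 1.23, 1.26 and 1.19% in KO replicates 3, 4 and 5. These intervals too overlapped between all libraries, from 0.887 to 1.51%. These shares are smaller than the shares of windows that the genes of a pair have in common, and the part of shared reads in them was not tested. Between the pairs the proportion did move: the ratio of Cyp2a5 to Cyp2a12 counts was 0.274, 0.889 and 0.375 in fl/fl replicates 1, 2 and 3 and 0.632, 0.984 and 0.346 in KO replicates 3, 4 and 5, a range of 3.59-fold in which both genotypes covered most of the span.

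**Figure D2:**
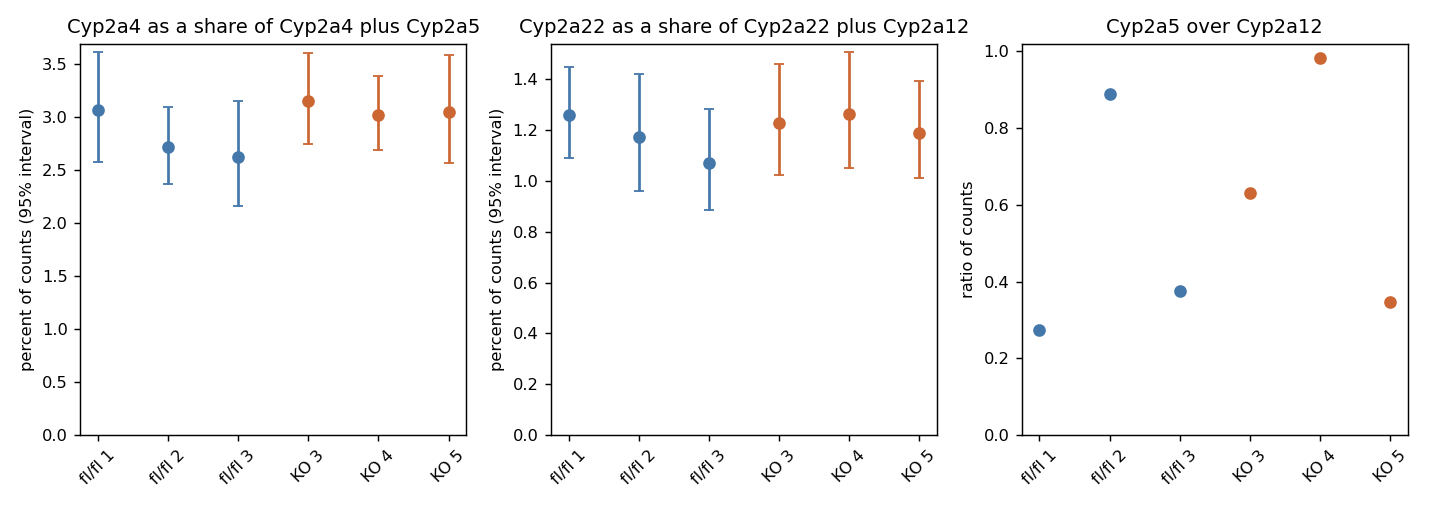
For each library (fl/fl in blue, KO in orange), the share of Cyp2a4 in the counts of Cyp2a4 plus Cyp2a5 and of Cyp2a22 in those of Cyp2a22 plus Cyp2a12, in percent with exact 95% counting intervals, and the ratio of Cyp2a5 to Cyp2a12 counts. The shares stay between 2.62 and 3.15% and between 1.07 and 1.26%, while the ratio runs from 0.274 to 0.984.

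The counts of the pseudogene Cyp2a21-ps, which shares windows with Cyp2a4 and Cyp2a5, were 65, 156 and 67 in fl/fl replicates 1, 2 and 3 and 98, 227 and 67 in KO replicates 3, 4 and 5. They were highest in the libraries with the most Cyp2a5, at 0.0152 to 0.0244 counts for each count of Cyp2a5. Whether they are its own transcripts or reads of Cyp2a5 was not tested.

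Of the Cyp2b genes, Cyp2b10, the classical target of CAR, was the only one above the filter. It was at 5.10, 2.89 and 1.22 CPM in fl/fl replicates 1, 2 and 3 and at 1.20, 0.620 and 3.10 CPM in KO replicates 3, 4 and 5, or 21 to 196 counts in a library. Both genotypes held high and low libraries, 8.22-fold apart at the extremes, and the groups overlapped. The means were 3.07 ± 1.94 CPM and 1.64 ± 1.29 CPM (SD, n = 3 each), with a log2 fold change of −0.78 (SE 0.70, 95% interval −2.44 to 0.87, FDR 0.998, exact permutation p = 0.4). Leaving out fl/fl replicate 1 gave −0.15 and leaving out KO replicate 5 gave −1.89. With the series of library indexes (fl/fl replicates 1 and 2 in one, the other 4 libraries in another) as a further term the direction turned to 0.41. That fit sets the KO libraries against fl/fl replicate 3 alone, the fl/fl library with the least Cyp2b10. The log2 difference was −2.08 on day 1 and −0.14 on day 2, and the interaction of genotype with day did not pass the test (1.93, SE 1.33, unadjusted p = 0.198, FDR 1.00).

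Cyp2b10 did not run with the mRNA of its receptor. The ratio of Cyp2b10 to Nr1i3 counts was 0.492, 0.183 and 0.106 in fl/fl replicates 1, 2 and 3 and 0.106, 0.0259 and 0.554 in KO replicates 3, 4 and 5, a range of 21.4-fold. KO replicate 4 had the most Nr1i3 and the least Cyp2b10, and KO replicate 5 the least Nr1i3 and the second most Cyp2b10. CAR is known to be held in the cytoplasm and released by phosphatases or ligands, so its mRNA is not a measure of its activity. The summed level of the stellate cell markers was also highest in fl/fl replicate 1 and lowest in KO replicate 4. It was 6.23 to 25.7 CPM in fl/fl and 5.02 to 10.3 CPM in KO libraries over the 11 listed markers, of which 7 passed the filter. The defining marker Lrat was not lowest in KO replicate 4, with 16, 4 and 3 counts in fl/fl replicates 1, 2 and 3 and 5, 9 and 8 in KO replicates 3, 4 and 5. Des was not either, with 4, 0 and 0 counts and 0, 4 and 5 counts in the same order. The part of stellate cells in the Cyp2b10 values was not tested.

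Cyp2b9 and Cyp2b13 are known as female-predominant enzymes of mouse liver. Cyp2b9 had 0 counts in all libraries but KO replicate 4, which had 1, and 3 counts in a library correspond to 0.0780 to 0.0989 CPM, the upper limit that a count of 0 allows. The sum of Cyp2b9 and Cyp2b10, with no row for Cyp2b13 in the count table, differed from Cyp2b10 alone by that 1 count (two-sided exact permutation p = 0.4). Cyp2g1, best known from the olfactory mucosa, was barely above the filter, with 6, 9 and 6 counts in fl/fl replicates 1, 2 and 3 and 5, 7 and 1 counts in KO replicates 3, 4 and 5. Its log2 fold change of −0.63 (SE 0.68, 95% interval −2.24 to 0.98, FDR 0.998) was −0.10 without KO replicate 5, so no difference was detectable at this depth.

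Counted together, 0 of the 8 tested genes had an FDR below 0.05 for genotype, where the share called among all 15105 genes was 0%. At an unadjusted p below 0.05 it was 0 of 8 beside 3.72% of all genes, and groups without overlap were found for 0 of 8 beside 10.6%. DESeq2's Wald test called 0 of the 7 members to which it gave an adjusted p (0.0636% of all such genes; Cyp2g1 had none), and 0 of 8 at an unadjusted p below 0.05 (2.88%). In direction the 8 genes were split, 4 higher and 4 lower, with a median log2 fold change of −0.0051 beside 0.0030 for all genes. The median size of the change without its sign was 0.25, beside 0.14 for all genes.

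**Figure D3:**
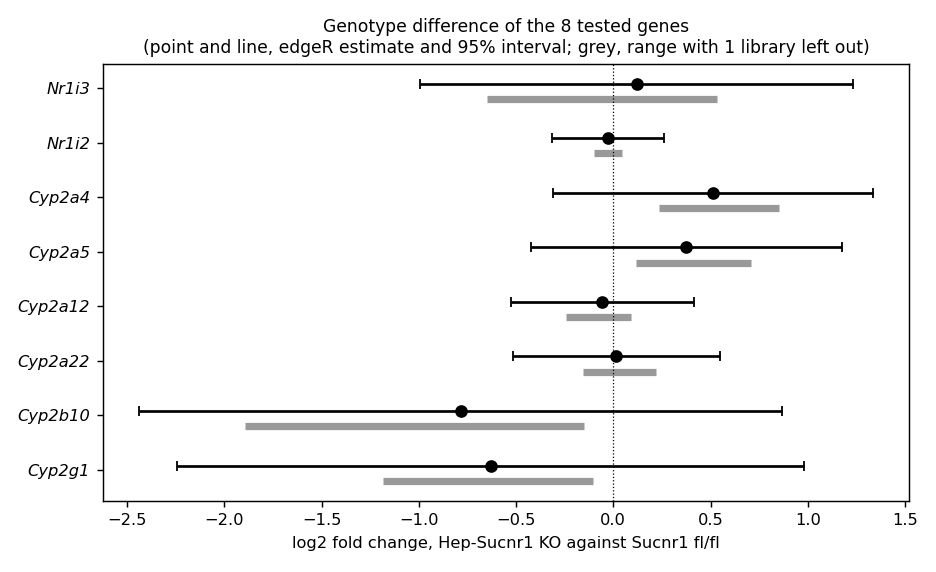
The log2 fold change of KO against fl/fl for the 8 tested genes (x axis, log2 scale), with points and lines for edgeR's estimate and 95% interval and grey bars for the range with 1 library left out in turn. All 8 intervals include 0; that of Nr1i2 is the narrowest (−0.32 to 0.26) and that of Cyp2b10 the widest (−2.44 to 0.87).

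Extraction day, which both genotypes share, was tested in the same fit. For day 2 against day 1, 0 of the 8 genes had an FDR below 0.05 (0% of all genes) and 0 an unadjusted p below 0.05 (7.49%), the days overlapped for all 8 (14.8% of all genes did not overlap), and DESeq2 called 0 of 7 at an adjusted (1.61%) and 0 at an unadjusted p below 0.05 (6.99%). The log2 fold changes ran from −0.49 for Cyp2b10 (SE 0.72) to 0.39 for Nr1i3 (SE 0.50). For the interaction of genotype and day it was also 0 of 8, by FDR (0%) and by unadjusted p (3.69%) and with DESeq2 by adjusted (0.0265%) and unadjusted p (2.96%), in a fit that leaves 2 residual degrees of freedom.

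Per length of the union of exons, the mean levels over the 6 libraries were 97.1 CPM per kilobase for Cyp2a12, 87.8 for Cyp2a5, 12.997 for Nr1i2, 3.17 for Cyp2a4, 2.96 for Nr1i3, 1.18 for Cyp2a22, 1.11 for Cyp2b10 and 0.0792 for Cyp2g1. Neighbours in that order overlapped in their ranges for Cyp2a12 and Cyp2a5 (76.8 to 117 and 53.6 to 133 CPM per kilobase), for Cyp2a4 and Nr1i3, for Nr1i3 and Cyp2a22, and for Cyp2a22 and Cyp2b10. The unions of Cyp2a12, Cyp2a22 and Nr1i3 hold stretches outside their protein-coding transcripts, and with the length of the protein-coding transcript Cyp2a12 was at 200 and Cyp2a5 at 90.4 CPM per kilobase, while Nr1i3, at 9.26, stood above Cyp2a4, at 3.17. In either case Cyp2a5 and Cyp2a12 stood far above the other P450 genes of the set. By the union of exons, Cyp2a5 made up 30.7 to 60.4% of the summed Cyp2a level and Cyp2a12 36.8 to 67.3%. These shares depend on the length used. By the protein-coding transcript, Cyp2a12 (158 to 241 CPM per kilobase) stood above Cyp2a5 (55.2 to 137) in every library.

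Across the 6 libraries the genes fell into opposite profiles, given here as log2 CPM minus the mean of the 6 libraries. Nr1i3, Cyp2a4 and Cyp2a5 were all above their mean in fl/fl replicate 2 (0.40, 0.34 and 0.45) and KO replicate 4 (1.01, 0.71 and 0.67) and below it in fl/fl replicate 1 and KO replicate 5. Cyp2a12 and Cyp2a22 did the reverse, below their mean in fl/fl replicate 2 and KO replicate 4 and above it in fl/fl replicate 1 and KO replicate 5. The root mean square difference between profiles was 0.10 for Cyp2a4 and Cyp2a5 and 0.08 for Cyp2a12 and Cyp2a22, against 0.70 for Cyp2a5 and Cyp2a12 and 1.46 for Nr1i3 and Cyp2b10. All profiles share the same 6 libraries, and these differences are descriptions without a test.

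Landmarks of the lobule moved in the same libraries. The median over 15 pericentral genes was −0.28, 0.17 and −0.31 in fl/fl replicates 1, 2 and 3 and 0.12, 1.17 and −0.70 in KO replicates 3, 4 and 5. The median over 13 periportal genes was 0.23, −0.26 and 0.25 in fl/fl and −0.01, −0.38 and 0.31 in KO replicates in the same order. Nr1i3, Cyp2a4 and Cyp2a5 were above or below their mean as the pericentral median was in every library except KO replicate 3, where Nr1i3 was at −0.07, and Cyp2a12 and Cyp2a22 as the periportal median was in every library except fl/fl replicate 3, where Cyp2a22 was at −0.04. The pericentral gene set that the authors used holds Cyp2a22, as well as Nr1i3, Cyp2a4, Cyp2a5 and Cyp2g1. Whether the profile of Cyp2a22 includes reads of Cyp2a12 was not tested. Cyp2f2, the neighbour of Cyp2a12 in the cluster and 1 of the 13 periportal genes, was at 1512, 1096 and 1510 CPM in fl/fl and 1237, 865 and 1579 CPM in KO replicates in the same order, which is the direction of Cyp2a12. In a bulk culture fewer cells of a zone and less RNA per cell cannot be told apart. Between the genotypes, 1 of the 15 pericentral genes (Rhbg, 1.42) and 0 of the 13 periportal genes had an unadjusted p below 0.05, beside 3.72% of all genes tested. Their median log2 fold changes were 0.23 and −0.07, with extremes at Slc1a2 (1.56) and Tbx3 (−0.08) and at Aldh1b1 (0.27) and Cdh1 (−0.34).

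**Figure D4:**
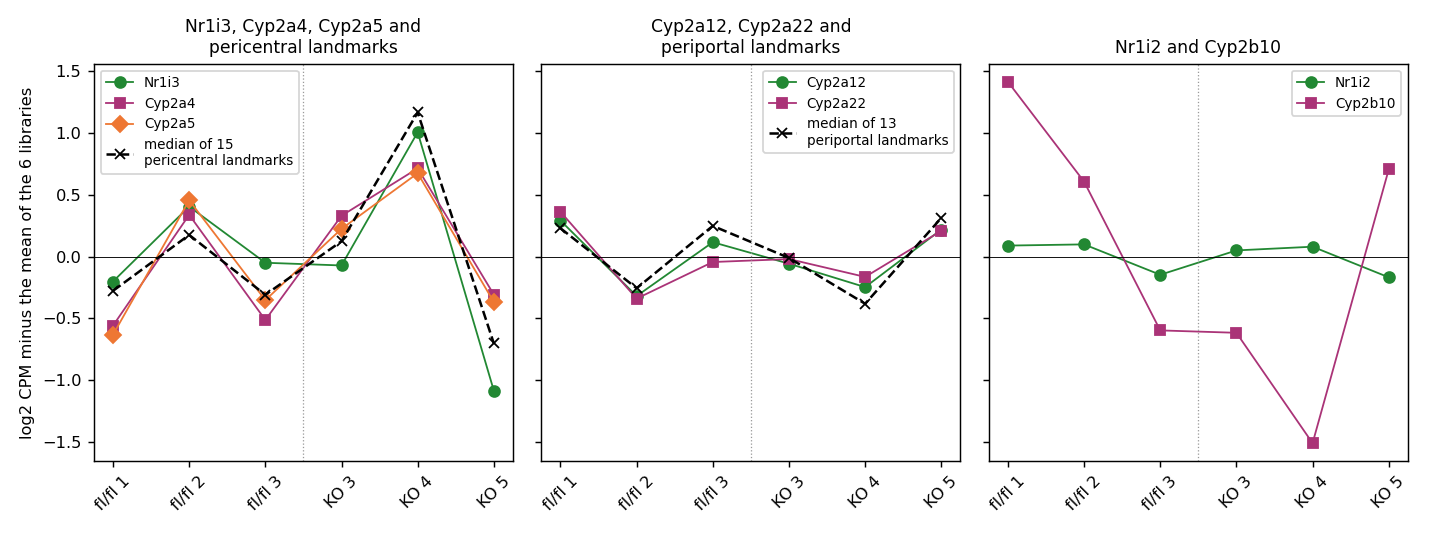
Log2 CPM minus the mean of the 6 libraries (y axis) in fl/fl replicates 1 to 3 and KO replicates 3 to 5 (x axis) for 7 of the genes, with dashed lines for the median of 15 pericentral and of 13 periportal landmark genes. Nr1i3, Cyp2a4 and Cyp2a5 peak in KO replicate 4 with the pericentral median (1.17), Cyp2a12 and Cyp2a22 dip in fl/fl replicate 2 and KO replicate 4 with the periportal median (−0.26 and −0.38), and Cyp2b10 is lowest in KO replicate 4.

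The genes most like each member were sought among 11707 tested genes with a mean of at least 1 CPM, with the other members left out, by the root mean square difference of the centred profiles over the 6 libraries. Nearest to Nr1i3 was Cyp2e1, the ethanol-oxidising P450 of the pericentral zone (0.11), ahead of Gm11963 (0.13) and Gas7 (0.13). Nearest to Nr1i2 were Kctd20 (0.03), Smg6 (0.03) and Nr1h4, the bile acid receptor FXR (0.04). Cyp2a4 was nearer to Cyp2a5 (0.10) than to any of these genes. Csrp3 and Pced1b were among the nearest to both Cyp2a4 (0.13 and 0.14) and Cyp2a5 (0.09 and 0.11), joined by Selenbp2 (0.15) for Cyp2a4 and Nek2 (0.11) for Cyp2a5. Cyp2a12 had Cnn3 (0.03), Nckipsd (0.05) and Rnf14 (0.05), and Cyp2a22 had Arhgef3 (0.03), Hsd17b12 (0.06) and Rap1gap (0.06). Nearest to Cyp2b10 were Zfp750 (0.45), Prickle2 (0.46) and Ppp1r3c (0.46), with Pearson correlations of 0.919, 0.921 and 0.924. The root mean square difference grows with a gene's own spread, which for Cyp2b10 stood at percentile 96.9. Its size therefore cannot be compared between members.

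The promoters of the members, the 250 bases before the RefSeq start on GRCm38.p6, were matched for 9 of the 10 genes. Those of Cyp2a4 and Cyp2a5 are 97.6% identical with 6 differing columns of 251, and those of Cyp2a12 and Cyp2a22 82.8%. The profiles within these pairs had Pearson correlations of 0.978 and 0.938. The promoters of Cyp2a12 and Cyp2a5 share 47.7%. Those of Cyp2b9 and Cyp2b10 share 68.8%, whereas Cyp2b9 and Cyp2b13 share 99.2%. Shown are the promoters of the Cyp2a pair with the higher promoter identity, Cyp2a4 (chr7:26306942-26307191, plus strand) and Cyp2a5 (chr7:26835089-26835338, plus strand), and of a detected and an undetected Cyp2b gene, Cyp2b10 (chr7:25897408-25897657, plus strand) and Cyp2b9 (chr7:26173159-26173408, plus strand), with a motif match in capitals.
Cyp2a4: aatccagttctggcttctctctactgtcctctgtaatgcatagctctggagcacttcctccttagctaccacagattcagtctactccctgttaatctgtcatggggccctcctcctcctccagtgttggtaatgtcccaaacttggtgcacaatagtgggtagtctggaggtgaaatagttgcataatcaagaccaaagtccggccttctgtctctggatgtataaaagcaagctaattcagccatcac
Cyp2a5: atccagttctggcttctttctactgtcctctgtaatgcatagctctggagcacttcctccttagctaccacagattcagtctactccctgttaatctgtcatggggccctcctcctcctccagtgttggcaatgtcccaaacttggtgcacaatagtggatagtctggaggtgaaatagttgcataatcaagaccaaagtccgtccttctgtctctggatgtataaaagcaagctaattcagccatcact
Cyp2b10: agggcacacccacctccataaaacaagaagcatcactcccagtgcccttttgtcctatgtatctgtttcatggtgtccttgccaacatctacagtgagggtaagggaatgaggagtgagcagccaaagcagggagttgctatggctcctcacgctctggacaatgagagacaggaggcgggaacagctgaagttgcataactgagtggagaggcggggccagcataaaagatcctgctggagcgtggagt
Cyp2b9: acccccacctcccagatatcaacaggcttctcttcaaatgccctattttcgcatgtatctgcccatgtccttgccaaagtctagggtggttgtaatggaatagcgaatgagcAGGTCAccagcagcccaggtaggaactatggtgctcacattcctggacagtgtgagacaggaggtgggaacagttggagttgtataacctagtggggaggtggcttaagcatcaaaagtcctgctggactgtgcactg

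Both strands were searched for the nuclear receptor half-site AGGTCA, the direct repeat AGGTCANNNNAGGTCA that contains it and is known as a form of CAR site, the HNF4A motif CAAAGTCCA, the antioxidant element core TGACNNNGC and the CCAAT box. The half-site occurs in Cyp2b9 and Cyp2b13, at −138 in both, and in 13.8% of 27025 promoters of this length. The CCAAT box occurs in Cyp2a12 and Nr1i2 and in 34.5% of all promoters. The other motifs have no exact match in the 9 promoters. Among all promoters 0.0111% matched the repeat, 0.381% the HNF4A motif and 10.1% the antioxidant element core. Sites with a mismatch were not counted. The promoters of Cyp2a4 and Cyp2a5 both hold caaagtccg, which differs from the HNF4A motif in its last base, and its binding was not tested. The phenobarbital-responsive enhancer of Cyp2b10 is known to lie further upstream and outside these windows.

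Other genes of the pathway were read from lists. Of 18 partners and regulators of the receptors, among them Rxra, Hnf4a, the chaperones that hold CAR in the cytoplasm and the coregulators, 0 had an FDR below 0.05, 0 were higher and 1 lower at an unadjusted p below 0.05 (1.91 and 1.81% of all genes tested), and the median log2 fold change was −0.10. The lower gene was Ppargc1a, a coactivator of fasting metabolism, with 3.24 ± 0.734 CPM in fl/fl and 2.06 ± 0.478 CPM in KO cells (n = 3 each, SD; log2 fold change −0.63, SE 0.26, unadjusted p = 0.0445, FDR 0.998 from edgeR), and the largest positive difference was that of the oestrogen receptor Esr1 (0.37, unadjusted p = 0.0521 from edgeR). Of 8 genes of P450 electron supply and haem synthesis none had an unadjusted p below 0.05, with a median log2 fold change of 0.09 and the lowest value at Por, the P450 reductase (−0.16).

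Of 25 other targets of CAR and PXR, 0 had an FDR below 0.05, 2 were higher and 1 lower at an unadjusted p below 0.05 (1.91 and 1.81% of all genes tested), and the median log2 fold change was 0.11. The glutathione transferase Gstm3 was at 23.3 ± 2.10 CPM in fl/fl and 37.9 ± 5.49 CPM in KO cells (SD, n = 3 each, log2 fold change 0.70, SE 0.11, unadjusted p = 5.6e-04, FDR 0.998 from edgeR), without overlap. Groups without overlap were found for 3 of the 25 targets, beside 10.6% of all genes tested. Ephx1 (log2 fold change −0.19) and Abcc3 (−0.27) were the ones lower in KO cells. Gstm2 was at 15.7 ± 1.83 CPM in fl/fl and 27.9 ± 15.04 CPM in KO cells (n = 3 each, SD, log2 fold change 0.82, unadjusted p = 0.0425 from edgeR). Its groups overlapped, with 22.0, 45.1 and 16.8 CPM in KO replicates 3, 4 and 5 and 17.0 CPM in fl/fl replicate 2. Sharing of reads among the Gstm genes, a multigene family, was not tested. The drug exporter Abcb1a was at 15.4 ± 5.35 and 9.69 ± 2.48 CPM (n = 3 each, SD; log2 fold change −0.62, unadjusted p = 0.0421 from edgeR). Cyp3a11, the classical PXR target (named after its value was seen), was at 990 to 1124 CPM in 5 libraries and 2227 CPM in KO replicate 4, where Nr1i2 was at 35.0 CPM. Of the other Cyp2 genes listed for the cluster on chromosome 7, Cyp2f2 was the only one tested (log2 fold change −0.16, SE 0.25, FDR 0.998), while Cyp2s1 had 0 to 11 counts and Cyp2b23 1 count in all.

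Most other female-biased genes were below the filter, as Cyp2b9 was. Of 14 listed, 13 had a row and 5 passed the filter, and Sult2a1, Sult2a2 and Hao2 had 1 to 4 counts over the 6 libraries together. Of 12 male-biased genes, all were tested, with a median of 0.12. Among them 1 (Cyp2u1, −0.69, unadjusted p = 0.0065 from edgeR) was lower in KO cells at an unadjusted p below 0.05, beside 1.81% of all genes tested. Fold changes in the female-biased list ran from −0.50 (Ntrk2) to 0.32 (Cyp2c69), with a median of −0.02.

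Lists for the state and purity of the cultures are given as counts. At an unadjusted p below 0.05, 0 of 9 NRF2 targets, 8 of 14 acute phase genes (all higher in KO cells), 0 of 11 hepatocyte identity genes and 1 of 16 genes of dedifferentiation in culture (Ccn1, lower) differed, with median log2 fold changes of 0.01, 0.43, −0.10 and 0.0040. Over all genes tested the share was 3.72%, with 1.91% higher and 1.81% lower in KO cells. All 14 acute phase genes had positive fold changes, from 0.13 (Fga) to 0.82 (Saa3), and none had an FDR below 0.05. Of the marker genes, 0 of 11 for Kupffer cells, 0 of 10 for sinusoidal endothelial cells, 1 of 7 for stellate cells (Reln, lower) and 0 of 7 for cholangiocytes differed at an unadjusted p below 0.05, with medians of −0.40, −0.25, −0.45 and −0.28. Inflammation is known to lower CAR, PXR and their targets. The part of the acute phase or of other cells in the values of the members was not tested.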

How the data were processed

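The labels gave the genotype, replicate number and day of extraction of each library. The authors trimmed the reads (Trim Galore 0.6.7), aligned them to GRCm38 (STAR 2.7.10a) and counted read pairs per gene of Ensembl 102 with strand (featureCounts), and deposited these raw counts without normalization. GENCODE M21, of the same build, gave a symbol for 25096 identifiers and none for 88. Raw reads were not analysed here.

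Genes with a mean DESeq2-normalized count above 5 were kept, and counts were fitted with edgeR 4.0.16 (R 4.3.3; TMM factors; model of extraction day and genotype) and tested by quasi-likelihood F test, with p-values adjusted by Benjamini-Hochberg across every tested gene and a threshold of 0.05. Unadjusted p-values and FDRs are from this test unless another is named. A positive log2 fold change means a higher level in KO than in fl/fl cells. DESeq2 1.42.0 was an alternative. For single values the two-sided exact permutation test was used. Centred profiles use log2 CPM with a prior count of 2. The tests were checked on simulated data. Sequences were read from GENCODE M21 transcripts and RefSeq promoters with Python 3.11.15 and aligned with Biopython 1.88. Alternatives were other scalings, filters, tests and covariates, and each library left out.

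The members and the gene lists were chosen with earlier results of these data known. Named were all members, Sucnr1, in each list the genes with the largest and the smallest genotype fold change, in the lists of receptor partners, redox partners, other targets and the gene cluster those with an unadjusted p below 0.05, and the 3 genes most like each member with a mean of at least 1 CPM. A few items that fall under this rule are not reported here. Ccn1, Reln, Rhbg, Xist, Ddx3y, Lrat, Ephx1, Abcc3 and the female-biased genes given with counts were named after their values were seen.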

Additional observations from a re-analysis of the deposited data

How the results depend on the processing

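No member was called for genotype, extraction day or their interaction under any alternative that was run, and the count of genes called for genotype over the whole table was 7 when DESeq2 replaced edgeR and 0 otherwise. For extraction day that count was 225 with DESeq2 and 122 with no filter, and 0 to 29 with 1 library left out. Leaving out KO replicate 5 gave 4 members an unadjusted p below 0.05 by edgeR (Nr1i3, Cyp2a4, Cyp2a5 and Cyp2b10, the last at 0.0040 with an FDR of 0.669), and leaving out fl/fl replicate 2 gave 1 (Cyp2a4). For extraction day, leaving out KO replicate 5 gave 2 by edgeR (Nr1i3 and Cyp2b10, with FDRs of 0.446 and 0.453). Directions close to 0 turned. The genotype log2 fold change of Cyp2a22 was −0.0050 with DESeq2's size factors, −0.011 with the library size alone, −0.0058 with DESeq2, −0.0032 with no filter, −0.0077 without the day term and −0.026 with the index series. That of Cyp2a12 was 0.083 in the day 2 libraries alone, and with the index series, chosen after seeing the data, Nr1i2 was at 0.12 and Cyp2b10 at 0.41. The fit with the index series sets the KO libraries against fl/fl replicate 3 alone. With 1 library left out, the genotype values ranged from −0.65 to 0.53 (Nr1i3), −0.10 to 0.044 (Nr1i2), −0.24 to 0.089 (Cyp2a12) and −0.16 to 0.22 (Cyp2a22), and those of extraction day from −0.21 to 0.69 (Nr1i3), −0.044 to 0.51 (Cyp2a4), −0.42 to 0.061 (Cyp2a12), −0.59 to 0.053 (Cyp2a22), −1.34 to 0.62 (Cyp2b10) and −0.40 to 0.55 (Cyp2g1). Cyp2a4, Cyp2a5 and Cyp2g1 kept their genotype direction in all alternatives in which they were tested. With the longest transcript in place of the union of exons, 5 of 9 genes kept their rank by level. The causes were not tested. Counts of Cyp2b9 and Cyp2g1 limit what can be seen of them. No paired analysis was possible because the genotypes share fewer than 2 replicate numbers.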
